A study of Mus musculus with 12 samples.

Results

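The genes described here are those whose RNA peaked at 2 weeks of age in the tibialis anterior (TA), a fast muscle of the lower leg, of wild-type mice. RNA was sequenced from pieces of TA muscle of WT mice on the 129Pas background before birth (E18.5) and at 2 and 7 weeks of age, with 4 mice per age and 12 libraries in all. No treatment and no engineered allele separates the groups, so age is the labelled difference between them. The libraries hold polyadenylated RNA of the whole tissue, in which fewer cells of a type and less RNA per cell cannot be told apart.

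Raw read counts per gene were scaled to CPM, a count relative to the size of its library, by TMM, a method that adjusts each library for its composition. A gene was taken when its mean was at least 5 CPM at 2 weeks, when its mean log2(CPM + 0.5) at 2 weeks stood at least 1 above the means at both other ages, and when its lowest 2-week library stood above every library of the other ages. These conditions were met by 98 of the 55450 genes in the table, which is 0.952% of the 10294 genes with at least 5 CPM at 2 weeks. The last condition alone was met by 383 of the 10294 genes, or 3.72%. The smaller of the differences from E18.5 and from 7 weeks, in log2 units, is called the peak of a gene. Because the 2-week values chose the genes, these differences are a description and carry no test. The order of E18.5 and 7 weeks was not part of the rule, although the levels at both ages were, and it is tested further on.

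Between late gestation and weaning the myofibers of a mouse limb muscle enlarge, exchange developmental for adult contractile proteins and complete their innervation. The capillary bed and the connective tissue grow with them. Each myofiber and each capillary is wrapped in a basement membrane, a sheet of type IV collagen, laminin and perlecan. Endothelial cells line the capillaries and seal them with tight junctions. Cytokines and growth factors such as growth hormone and TGF-beta act on the tissue through receptors, whose signals are restrained by intracellular inhibitors.

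Library totals ranged from 63018968 to 123449246 reads in genes, and 97 of the 98 genes had at least 10 reads in every library. The tissue carried the fast fiber program after birth, since the summed CPM of 14 fast fiber genes was 11884 to 18717 at E18.5, 182652 to 200135 at 2 weeks and 204475 to 228699 at 7 weeks. The libraries differed in how their levels followed the GC content of the transcripts, that is the share of G and C in the longest annotated transcript of a gene. At a GC content of 60% the 2-week libraries stood 0.41 to 0.66 above the mean of the 12 libraries in log2 units, the 7-week libraries -0.21 to 0.42 from it, and the E18.5 libraries -1.26 to -0.09 from it. E18.5 replicate 1 was the most extreme. Values after removal of this trend from every library are therefore given beside the results.

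The 98 genes spanned levels from 5.09 to 1876 CPM at 2 weeks, with a median of 21.5 CPM. Of these, 14 exceeded 100 CPM and 46 were under 20 CPM. Their median difference was 1.80 from E18.5 and 1.25 from 7 weeks, against 0.17 and -0.08 over the 10294 genes with at least 5 CPM. For 70 genes the larger step lay before 2 weeks and for 28 after it. The peak exceeded 2 for 10 genes, that is more than a 4-fold excess over both other ages, and was under 1.2 for 47. Together the genes took 1361 to 3229 CPM at E18.5, 7555 to 8986 at 2 weeks and 2637 to 3127 at 7 weeks. Without the pair *Col4a1* and *Col4a2*, which took the most reads, these sums were 807 to 1926, 4943 to 5979 and 1796 to 2036. By annotation 91 were protein-coding, 4 were long non-coding RNAs and 3 were pseudogenes, and they lay on 20 chromosomes. The roles under which they are grouped here were assigned after their values were seen.

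**Figure D1:**
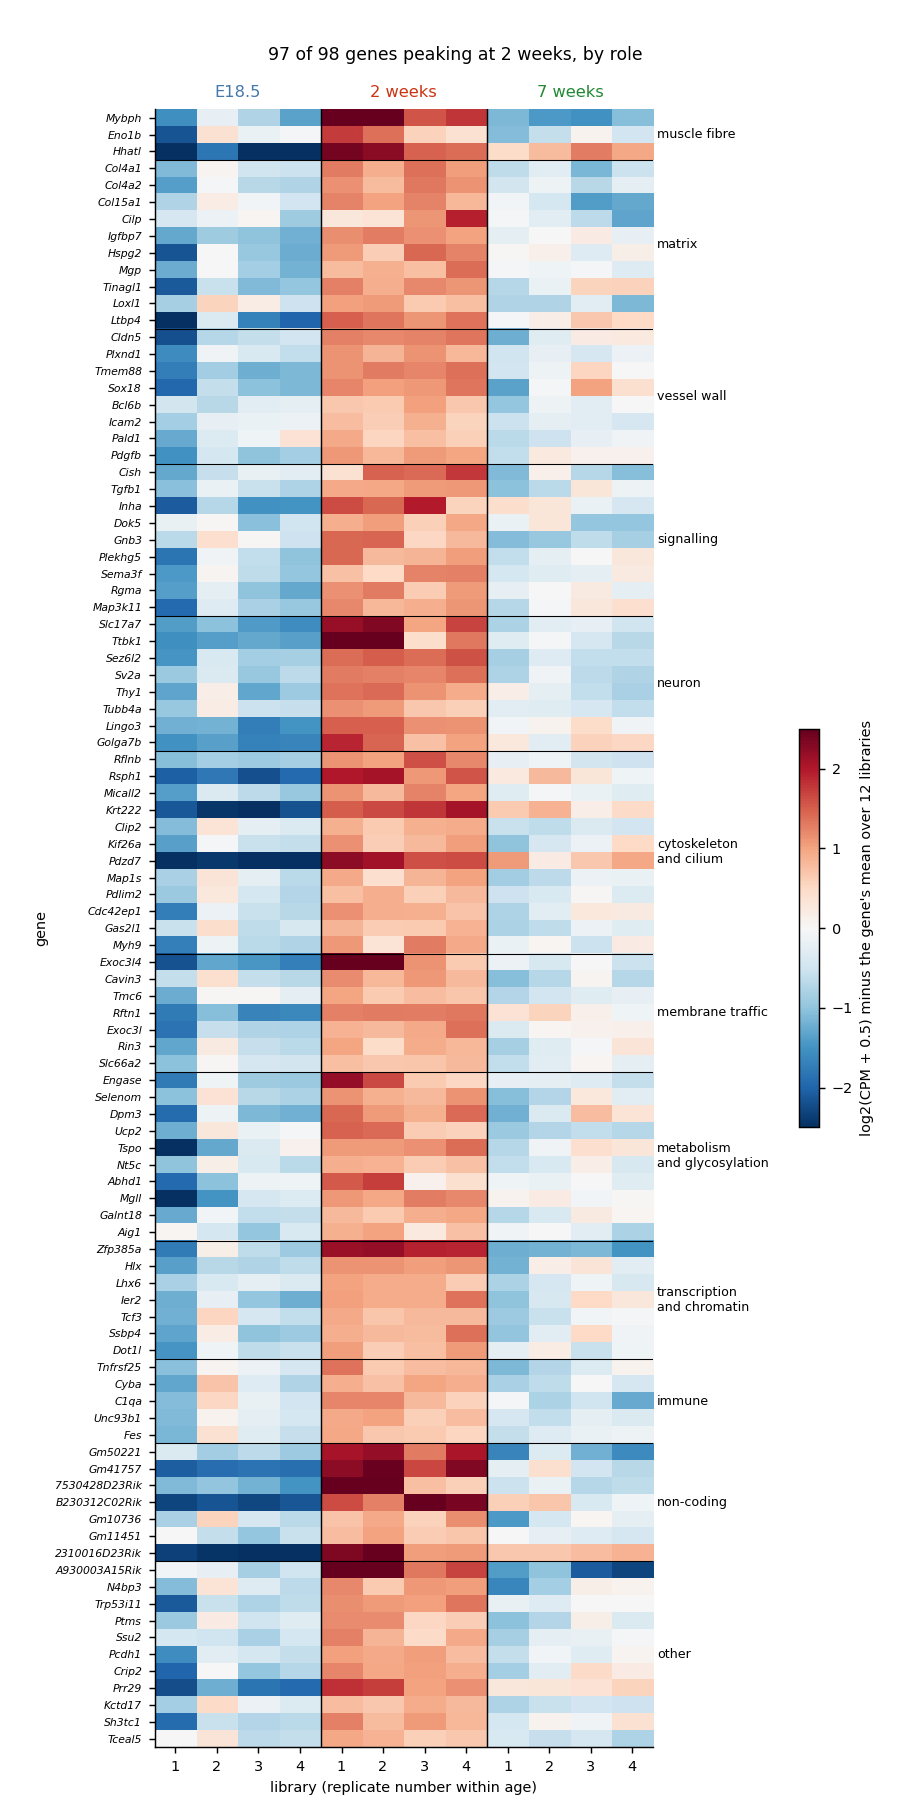
Level of 97 of the 98 genes (rows, grouped by role and ordered by peak) in the 12 libraries (columns), as log2(CPM + 0.5) minus the mean of the gene over all libraries. The 2-week columns are the highest by construction, and over all 98 genes, among the E18.5 columns, replicate 1 is the lowest for 78 genes and replicate 2 the highest for 76.

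Among genes of the myofiber itself, *Mybph*, which encodes myosin-binding protein H of the thick filament, had the largest peak of all. Its levels were 43.2, 108, 73.8 and 49.5 at E18.5, 969, 793, 376 and 434 at 2 weeks, and 57.2, 45.99, 43.3 and 59.8 at 7 weeks (CPM, replicates 1 to 4). Even the lowest 2-week library was more than 3 times the highest library of the other ages, and at 2 weeks replicates 1 and 2 stood clearly above replicates 3 and 4. The mean at 2 weeks, 643 ± 285 CPM (SD, n = 4 mice), stood 3.200 above E18.5 and 3.53 above 7 weeks in log2 units, and the peak was 2.58 with the GC trend removed. The region around its annotated start is shown as the sequence of the gene with the largest peak. It holds 120 bases before and 20 bases from the start, RefSeq on GRCm38.p6, chr1:134193328-134193467, plus strand. Capitals mark an E-box of the form CANNTG, the core bound by myogenic factors of the MyoD family, which begins 79 bases before the start, and a TATAA box read on both strands, whose plus-strand copy begins 37 bases before it.
Mybph: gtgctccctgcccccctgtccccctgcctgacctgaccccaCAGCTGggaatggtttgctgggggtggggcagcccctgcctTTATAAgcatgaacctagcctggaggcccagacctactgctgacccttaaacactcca
Both motifs are short and common, and nothing in these data shows whether they are bound.

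*Hhatl*, which encodes a protein of the sarcoplasmic reticulum related to an acyltransferase, was measured at 6.36, 19.2, 7.59 and 9.61 at E18.5, 360.1, 327, 192 and 181 at 2 weeks, and 93.7, 119, 167 and 134 at 7 weeks. It was high in all 2-week libraries but kept much of its level at 7 weeks, so its peak of 1.005 was close to the limit of the rule although it stood 4.63 above E18.5. Replicates 1 and 2 were again above replicates 3 and 4 at 2 weeks. *Eno1b*, a near-copy of the glycolytic gene *Eno1*, had 3.58, 23.1, 15.8 and 16.95 at E18.5, 60.7, 46.3, 26.4 and 23.1 at 2 weeks, and 8.03, 11.4, 18.6 and 12.5 at 7 weeks CPM. It is grouped with the myofiber genes here, but which cells of the tissue carry it was not tested. Its lowest 2-week library (23.13 CPM) was just above the highest other library (23.05 CPM), and since reads of such copies can be split between genes its level is uncertain.

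Genes of the extracellular matrix, 10 in number, took the largest share of the members' reads. *Col4a1* and *Col4a2* encode the chains of the common type IV collagen of basement membranes. *Col4a1* reached 389, 879, 588 and 574 at E18.5, 2052, 1556, 2174 and 1721 at 2 weeks, and 536, 696, 375 and 576 at 7 weeks CPM. *Col4a2* reached 165, 424, 265 and 258 at E18.5, 955, 750.2, 1076 and 939 at 2 weeks, and 316, 395, 265 and 364 at 7 weeks CPM. For both genes all 2-week libraries were well above the others, and both were lowest at E18.5 in replicate 1 and highest at E18.5 in replicate 2. They stood 1.67 above E18.5 and 1.801 above 7 weeks for *Col4a1*, and 1.81 above E18.5 and 1.48 above 7 weeks for *Col4a2*. With the GC trend removed the peaks were 0.68 and 0.53, below the limit of 1. The genes lie head to head on chromosome 8, *Col4a1* at chr8:11248423-11362826 on the minus strand and *Col4a2* at chr8:11362471-11499287 on the plus strand (GENCODE, GRCm39). The annotations overlap by 356 bp, and in RefSeq on GRCm38.p6 their starts are 21 bp apart, so they share a promoter region.

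*Hspg2*, which encodes perlecan, the heparan sulfate proteoglycan of basement membranes, had 58.2, 261, 135 and 111 at E18.5, 554, 404, 715 and 624 at 2 weeks, and 268, 288, 209 and 291 at 7 weeks CPM. Its E18.5 libraries spread over more than 4-fold. *Col15a1*, which encodes a collagen at the outer face of basement membranes, had 103, 197, 166 and 124 at E18.5, 408, 349, 407 and 308 at 2 weeks, and 165, 127, 65.2 and 71.2 at 7 weeks CPM. Here 2 of the 4 mice at 7 weeks lay below every E18.5 mouse, and the step after 2 weeks was the larger at 1.88. *Igfbp7*, which encodes a secreted IGF-binding protein found around vessels, had 34.8, 45.6, 41.9 and 36.8 at E18.5, 189, 206, 188 and 171 at 2 weeks, and 71.8, 85.5, 97.96 and 73.5 at 7 weeks CPM. It varied little within each age, with a peak of 1.202 that became 1.31 with the GC trend removed. *Ltbp4*, which encodes a protein that tethers latent TGF-beta to elastic fibers, was 27.05 ± 19.8 CPM at E18.5, 182 ± 20.04 at 2 weeks and 92.04 ± 20.8 at 7 weeks (mean ± SD, n = 4 mice), the largest step from E18.5 in the group at 2.96. *Mgp*, which encodes matrix Gla protein, an inhibitor of calcification, was 27.5 ± 12.5 CPM at E18.5, 91.4 ± 20.5 at 2 weeks and 41.99 ± 3.78 at 7 weeks.

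*Tinagl1* ranged over 4.42 to 13.8 at E18.5, 39.3 to 49.98 at 2 weeks and 12.3 to 31.2 at 7 weeks. *Loxl1*, which encodes an enzyme that cross-links elastin and was the only member among the 29 tested genes of a fibroblast and collagen list, ranged over 8.22 to 22.4 at E18.5, 23.8 to 32.1 at 2 weeks and 6.62 to 12.2 at 7 weeks. *Cilp*, a cartilage matrix gene and the only member among 10 tendon genes, had 19.6, 23.7, 27.3 and 13.9 at E18.5, 31.96, 33.2, 56.6 and 102 at 2 weeks, and 25.8, 21.8, 16.4 and 10.2 at 7 weeks CPM, so that at 2 weeks replicate 4 was 3 times replicates 1 and 2. With the GC trend removed 2 of the 10 matrix genes still met the rule, *Igfbp7* and *Mgp*, and *Loxl1* turned to -0.24. The fibroblast list as a whole did not share the pattern. Over its 29 tested genes the median difference was -1.17 from E18.5 and 1.29 from 7 weeks. Of the 29, 5 were highest at 2 weeks, against 4164 of all 19276 tested genes, a background not matched for level.

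**Figure D2:**
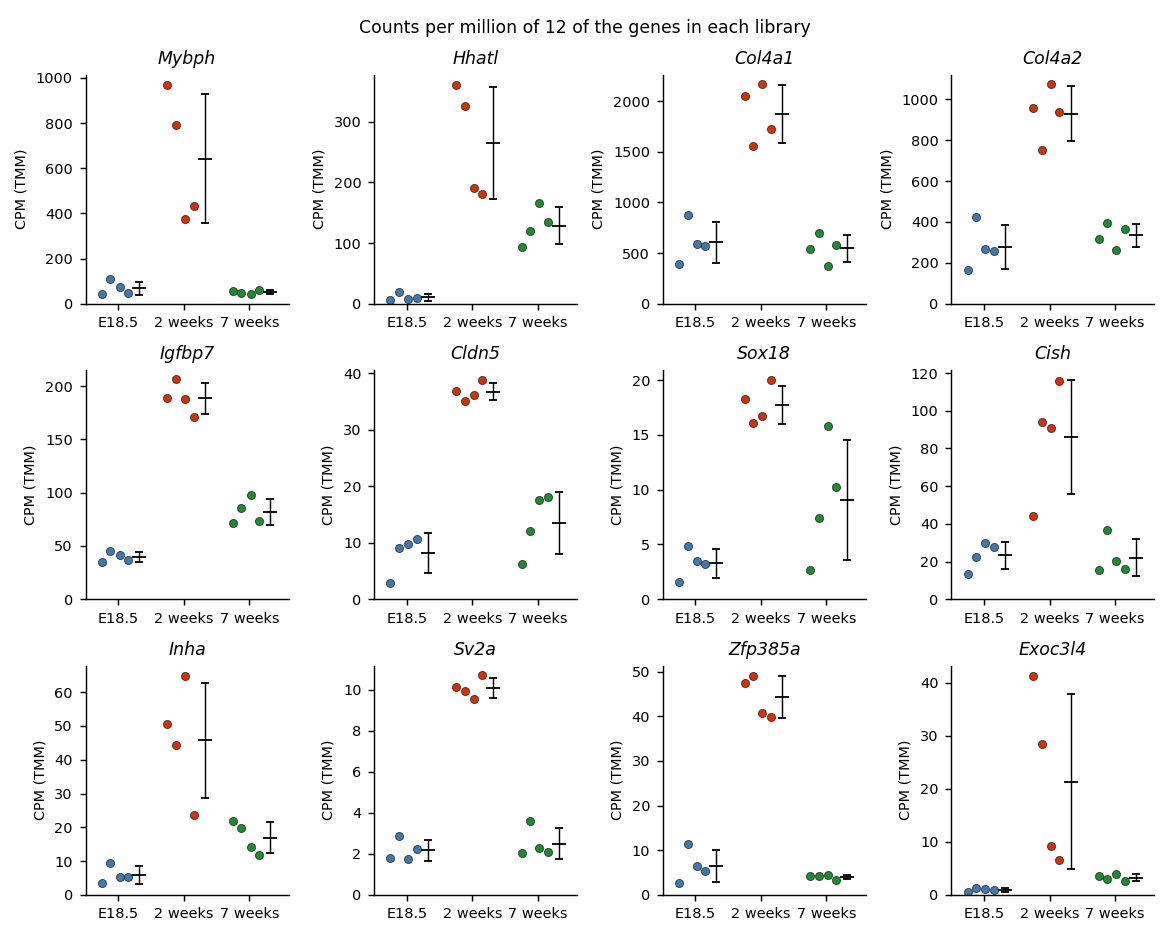
CPM after TMM scaling (y axis, from 0, a separate scale per gene) of 12 genes in each library at E18.5, 2 weeks and 7 weeks; points are the mice, ordered by replicate number, and bars are mean ± SD (n = 4). *Igfbp7*, *Sv2a* and *Cldn5* are tight at 2 weeks, whereas *Mybph*, *Hhatl* and *Exoc3l4* have replicates 1 and 2 above 3 and 4.

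In the vessel wall, 8 genes known from endothelial cells or their signals met the rule. *Cldn5*, the claudin that seals endothelial tight junctions, had 2.91, 9.04, 9.85 and 10.7 at E18.5, 36.9, 35.1, 36.2 and 38.8 at 2 weeks, and 6.23, 12.1, 17.5 and 18.1 at 7 weeks CPM. The 4 mice at 2 weeks differed by little, and the lowest of them was nearly 2 times the highest 7-week mouse. The gene stood 2.25 above E18.5 and 1.52 above 7 weeks, and with the GC trend removed its peak was 1.01. Its start region is shown because it is the vessel gene with the largest peak, RefSeq on GRCm38.p6, chr16:18776727-18776866, plus strand, 120 bases before and 20 from the start. Capitals mark 2 CCAAT boxes read on the minus strand, beginning 118 and 88 bases before the start, and a GC box (GGGCGG, read on the minus strand) beginning 45 bases before it.
Cldn5: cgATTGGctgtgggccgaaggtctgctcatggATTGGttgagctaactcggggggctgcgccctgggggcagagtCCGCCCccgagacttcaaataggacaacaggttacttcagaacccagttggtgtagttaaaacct
The shares of all promoters that hold these motifs are given further on.

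*Plxnd1*, which encodes the endothelial receptor for class 3 semaphorins, had 32.7, 92.4, 75.6 and 64.4 at E18.5, 215, 178, 214 and 174 at 2 weeks, and 69.2, 85.4, 73.8 and 89.4 at 7 weeks CPM. *Pdgfb*, the growth factor by which endothelial cells recruit pericytes, had 8.77, 18.98, 12.7 and 14.1 at E18.5, 55.6, 46.5, 54.6 and 51.9 at 2 weeks, and 16.8, 30.8, 27.8 and 27.7 at 7 weeks CPM. *Sox18*, a transcription factor of endothelial and lymphatic cells, had 1.57, 4.83, 3.49 and 3.22 at E18.5, 18.3, 16.1, 16.7 and 20.01 at 2 weeks, and 2.697, 7.45, 15.8 and 10.2 at 7 weeks CPM. At 2 weeks each of these genes varied little, but *Sox18* ranged over almost 6-fold at 7 weeks, from 2.70 in replicate 1 to 15.8 in replicate 3. *Tmem88* was 3.22 ± 0.868 CPM at E18.5, 19.99 ± 1.51 at 2 weeks and 8.23 ± 2.65 at 7 weeks. *Bcl6b* was 21.1 ± 3.09 CPM at E18.5, 47.96 ± 6.49 at 2 weeks and 22.9 ± 6.22 at 7 weeks, *Icam2*, an endothelial adhesion molecule, ranged over 9.07 to 15.04 at E18.5, 24.8 to 31.2 at 2 weeks and 11.3 to 14.05 at 7 weeks, and *Pald1* over 12.7 to 40.1 at E18.5, 45.3 to 60.3 at 2 weeks and 19.4 to 29.1 at 7 weeks. With the GC trend removed *Cldn5*, *Tmem88* and *Bcl6b* still met the rule, while *Pald1* was at -0.004.

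The endothelial marker list, fixed for this work with earlier results of these data known, shows how far this went beyond the members. Of its 16 tested genes only *Cldn5* met the rule, but 12 were highest at 2 weeks by their means (14 with the GC trend removed). Over all genes tested this held for 4164 of 19276 (3892 with the trend removed). All 16 had at least 5 CPM at 2 weeks, which the 19276 genes did not have to have, so that background is not matched for level. In 5 genes the lowest 2-week library was above every other library, namely *Cldn5*, *Cdh5*, *Dll4*, *Tie1* and *Pecam1*, a share to be read against the 3.72% given above. Their summed CPM was 530 to 761 at E18.5, 1366 to 1562 at 2 weeks and 908 to 1257 at 7 weeks, with no overlap between 2 weeks and the other ages. The junction gene *Cdh5* was 105 ± 20.9, 314 ± 27.8 and 183 ± 44.4 CPM (mean ± SD, n = 4 mice) at E18.5, 2 weeks and 7 weeks. *Apln*, which encodes a peptide of sprouting tip cells, was 25.2 ± 4.44, 39.1 ± 12.5 and 3.14 ± 0.746 CPM. The VEGF receptor *Flt1* went the other way after 2 weeks, with 37.1 ± 5.44, 82.4 ± 16.8 and 148 ± 32.1 CPM. The median difference of the list was 1.33 from E18.5 and 0.58 from 7 weeks, and 0.86 and 0.45 with the trend removed. Whether the vessel genes follow the number of endothelial cells was not tested.

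**Figure D3:**
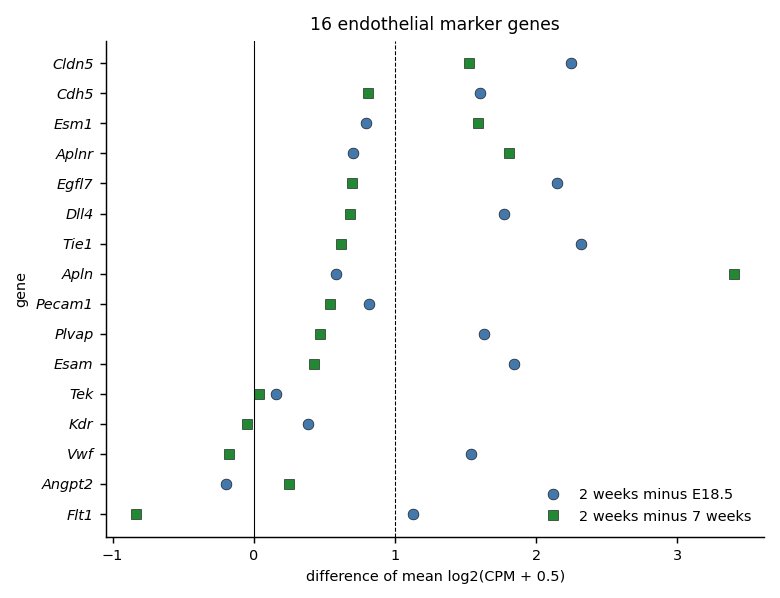
Difference of the mean log2(CPM + 0.5) at 2 weeks from E18.5 (circles) and from 7 weeks (squares) for the 16 tested genes of the endothelial list; the solid line is no difference and the dashed line the limit of 1 that the rule set. For 12 genes both marks lie to the right of 0, and for *Cldn5* alone both lie beyond 1.

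Of the 9 signalling genes, *Cish* had the largest peak. It encodes an inhibitor of the SOCS family that is induced by cytokine and growth hormone receptors through STAT5. Its levels were 13.6, 22.3, 29.6 and 27.6 at E18.5, 43.9, 93.96, 90.8 and 116 at 2 weeks, and 15.4, 36.6, 20.3 and 15.8 at 7 weeks CPM. Replicate 1 at 2 weeks was close to the highest 7-week mouse, while the other 2-week mice were at 90.8 CPM or above. The peak of 1.84 was 1.38 with the GC trend removed. The region around its start is shown because it carries the motif of STAT factors, TTCNNNGAA, in 2 copies within a few bases. It is RefSeq on GRCm38.p6, chr9:107296539-107296678, plus strand, with 120 bases before and 20 from the start, and capitals mark the copies TTCCTGGAA, which begins at the start itself, and TTCTTGGAA, which begins 11 bases after it.
Cish: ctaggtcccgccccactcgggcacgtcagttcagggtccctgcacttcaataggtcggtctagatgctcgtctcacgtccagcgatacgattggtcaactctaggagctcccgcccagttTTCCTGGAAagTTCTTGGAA
Of the 18 tested genes of a growth hormone, IGF and myostatin list, *Igfbp7* alone met the rule, and 3 were highest at 2 weeks. *Socs2*, another inhibitor induced by the growth hormone receptor, was 19.6 ± 4.0, 14.9 ± 4.3 and 16.0 ± 5.17 CPM at E18.5, 2 weeks and 7 weeks, so its pattern was not that of *Cish*. The receptor gene *Ghr* was 82.5 ± 17.6, 94.0 ± 5.89 and 202 ± 34.7 CPM, highest at 7 weeks.

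Genes of the TGF-beta family were also present. *Inha*, which encodes the inhibin alpha subunit, had 3.403, 9.53, 5.29 and 5.31 at E18.5, 50.5, 44.3, 64.8 and 23.7 at 2 weeks, and 21.8, 19.8, 14.2 and 11.8 at 7 weeks CPM. Replicate 4 at 2 weeks was well under the other 2-week mice and just above the highest 7-week mouse. *Tgfb1*, the ligand itself, had 1.91, 3.903, 2.87 and 2.41 at E18.5, 8.996, 9.14, 9.78 and 9.98 at 2 weeks, and 1.92, 2.602, 5.59 and 4.01 at 7 weeks CPM and varied little at 2 weeks. *Rgma*, a BMP co-receptor, was 9.17 ± 3.904 CPM at E18.5, 36.8 ± 6.86 at 2 weeks and 16.95 ± 2.66 at 7 weeks. With the GC trend removed *Cish* and *Tgfb1* still met the rule among the 9 signalling genes, and the peak of *Inha* stayed above 1 at 1.16 although its libraries then overlapped. The others were *Map3k11*, a kinase upstream of JNK, *Sema3f*, a ligand of neuropilin receptors, *Plekhg5*, an exchange factor for RhoA, *Dok5*, an adaptor of receptor tyrosine kinases, and *Gnb3*, a G protein beta subunit, with peaks of 1.02 to 1.29.

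A group of 9 genes best known from neurons met the rule, all but *Thy1* with means under 25 CPM at 2 weeks. *Slc17a7*, the vesicular glutamate transporter VGLUT1, had 0.362, 0.611, 0.352 and 0.271 at E18.5, 9.82, 10.8, 4.03 and 6.83 at 2 weeks, and 0.813, 1.38, 1.48 and 1.104 at 7 weeks CPM. *Ttbk1*, a tau kinase, had 0.0567, 0.119, 0.166 and 0.128 at E18.5, 9.41, 9.45, 1.703 and 3.54 at 2 weeks, and 0.813, 1.07, 0.704 and 0.503 at 7 weeks CPM. *Sv2a*, a glycoprotein of synaptic vesicles, had 1.79, 2.88, 1.76 and 2.26 at E18.5, 10.2, 9.94, 9.57 and 10.7 at 2 weeks, and 2.04, 3.596, 2.28 and 2.08 at 7 weeks CPM. The first and the second were close to 0 at E18.5 and uneven at 2 weeks, whereas *Sv2a* was nearly the same in the 4 mice at 2 weeks. *Sez6l2* ranged over 0.617 to 1.86 at E18.5, 7.67 to 8.78 at 2 weeks and 1.23 to 1.96 at 7 weeks, with a peak of 2.07. *Thy1*, a surface glycoprotein of neurons, T cells and some fibroblasts, had 6.41, 18.96, 6.52 and 8.73 at E18.5, 43.6, 45.6, 36.98 and 32.4 at 2 weeks, and 18.9, 14.2, 10.7 and 9.27 at 7 weeks CPM. *Lingo3* was 3.23 ± 0.639 CPM at E18.5, 23.8 ± 3.46 at 2 weeks and 10.1 ± 1.96 at 7 weeks.

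With the GC trend removed 5 of the 9 still met the rule, among them *Slc17a7*, *Sez6l2*, *Sv2a* and *Thy1*. The marker lists of nerve held no member. None of the 19 tested myelin and Schwann cell genes and none of the 15 neuromuscular junction genes met the rule. By their means 14 and 7 of them were highest at 2 weeks, against 21.6% of all genes tested, a background not matched for level. With at least 5 CPM at 2 weeks were 10 and 13 of them. In 0 and 3 of these the lowest 2-week library was above every other library, against 3.72% of all such genes. *Chrne*, the adult subunit of the acetylcholine receptor, came near with 2.05 ± 0.364, 51.7 ± 18.7 and 26.2 ± 1.63 CPM, and *Chrnb1* was 63.0 ± 9.38, 118 ± 3.02 and 73.3 ± 6.83 CPM. Which cells of the tissue carry the neuron genes was not tested.

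Genes of the cytoskeleton and the cilium were the most numerous group, with 12 members. *Rflnb*, which encodes refilin B, a regulator of filamin, had 26.5, 30.4, 29.3 and 30.9 at E18.5, 122, 112, 169.6 and 128 at 2 weeks, and 48.1, 51.5, 40.3 and 38.8 at 7 weeks CPM. *Krt222*, a keratin-like gene, had 0.886, 0.611, 0.568 and 0.827 at E18.5, 16.7, 18.46, 20.3 and 24.9 at 2 weeks, and 8.904, 10.5, 6.27 and 7.86 at 7 weeks CPM. *Pdzd7*, a gene of the stereocilia and Usher complex, had 0.142, 0.3499, 0.287 and 0.163 at E18.5, 20.6, 18.8, 13.2 and 13.5 at 2 weeks, and 8.88, 4.67, 6.71 and 8.25 at 7 weeks CPM. *Rsph1*, which encodes a protein of the radial spoke head of motile cilia, had 0.177, 0.308, 0.111 and 0.225 at E18.5, 10.7, 11.3, 5.44 and 7.79 at 2 weeks, and 2.796, 4.42, 2.93 and 2.11 at 7 weeks CPM. The last 3 were nearly silent at E18.5 and kept a clear level at 7 weeks, so their peaks of 1.22, 1.17 and 1.37 were set by the smaller step after 2 weeks. *Myh9*, the non-muscle myosin IIA heavy chain, had the most reads in the group, with 29.5, 89.4, 61.2 and 57.6 at E18.5, 208, 124, 239 and 188 at 2 weeks, and 87.3, 101, 66.7 and 113 at 7 weeks CPM. The remaining 7 had between 5.09 and 35.4 CPM at 2 weeks. *Rflnb*, *Rsph1* and *Krt222* met the rule with the GC trend removed, and *Map1s*, at a GC content of 62.1%, turned to -0.203.

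Among 7 genes of membrane traffic and membrane domains, *Exoc3l4*, related to the exocyst subunit SEC6, had the largest peak but also the most uneven values. It had 0.482, 1.305, 1.12 and 0.858 at E18.5, 41.2, 28.5, 9.21 and 6.52 at 2 weeks, and 3.53, 2.88, 3.92 and 2.58 at 7 weeks CPM. Replicate 1 was more than 6 times replicate 4 at 2 weeks. *Rftn1*, which encodes the lipid raft protein raftlin, was the opposite, with 5.69, 9.48, 6.11 and 6.36 at E18.5, 49.6, 51.2, 50.7 and 51.7 at 2 weeks, and 26.5, 30.4, 22.6 and 18.96 at 7 weeks CPM. Its 4 mice at 2 weeks spread by 1.74% (CV), the least of the 98 genes. *Cavin3*, a coat protein of caveolae, ranged over 6.18 to 13.7 at E18.5, 18.7 to 24.05 at 2 weeks and 4.72 to 10.9 at 7 weeks. *Exoc3l4*, *Rftn1* and *Slc66a2* met the rule with the GC trend removed.

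Of 10 genes of metabolism and glycosylation, *Mgll*, the monoglyceride lipase that splits off the last fatty acid of triglycerides, had the most reads. It had 16.9, 35.1, 74.3 and 77.8 at E18.5, 211, 195, 240.2 and 228 at 2 weeks, and 106, 114, 94.7 and 101 at 7 weeks CPM, and its E18.5 mice formed a lower pair, replicates 1 and 2, and a higher pair, replicates 3 and 4. *Ucp2*, a mitochondrial carrier of the inner membrane, had 18.9, 54.3, 39.7 and 43.5 at E18.5, 125, 120.2, 68.9 and 66.7 at 2 weeks, and 23.02, 26.6, 28.8 and 26.9 at 7 weeks CPM. It was the only member among 23 tested genes of a fatty acid oxidation list. *Engase*, an endoglycosidase that frees N-glycans, had 1.45, 5.71, 3.11 and 3.01 at E18.5, 29.96, 20.6, 10.1 and 9.08 at 2 weeks, and 5.28, 5.22, 4.87 and 3.95 at 7 weeks CPM. *Tspo*, the translocator protein of the outer mitochondrial membrane, had 1.099, 4.91, 9.76 and 13.6 at E18.5, 27.1, 26.9, 28.6 and 34.1 at 2 weeks, and 7.48, 11.8, 17.1 and 15.6 at 7 weeks CPM. *Dpm3*, a subunit of dolichol-phosphate mannose synthase, was 0.979 ± 0.797 CPM at E18.5, 6.13 ± 1.19 at 2 weeks and 2.49 ± 1.59 at 7 weeks. *Abhd1* had 32.5, 37.2, 11.7 and 14.5 CPM at 2 weeks, again with replicates 1 and 2 above the rest. *Dpm3*, *Tspo* and *Aig1* met the rule with the GC trend removed.

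Transcription and chromatin genes numbered 7. *Zfp385a*, which encodes a zinc finger protein that binds RNA and p53, had the second largest peak of all members, with 2.701, 11.4, 6.44 and 5.24 at E18.5, 47.5, 49.04, 40.6 and 39.9 at 2 weeks, and 4.12, 4.27, 4.45 and 3.33 at 7 weeks CPM. The 2-week mice were close together, and the 7-week mice lay below the E18.5 mice other than replicate 1. With a GC content of 62.7% its peak moved from 2.84 to 1.43 with the trend removed, and it was the only gene of the group that still met the rule. *Dot1l*, the methyltransferase of histone H3 lysine 79, had 26.2, 68.7, 47.3 and 50.2 at E18.5, 154, 115, 126 and 156 at 2 weeks, and 63.4, 84.6, 50.2 and 68.4 at 7 weeks CPM. *Tcf3*, which encodes the E proteins that pair with MyoD on E-boxes, had 5.26, 18.9, 9.46 and 8.16 at E18.5, 24.97, 21.1, 22.8 and 22.9 at 2 weeks, and 6.54, 8.57, 12.1 and 12.6 at 7 weeks CPM, with E18.5 replicate 2 close to the 2-week mice. *Hlx* was 1.38 ± 0.387 CPM at E18.5, 6.65 ± 0.193 at 2 weeks and 2.56 ± 1.21 at 7 weeks. *Ier2* was the only member among 22 tested immediate early genes and was 1.53 ± 0.753 CPM at E18.5, 7.11 ± 1.18 at 2 weeks and 3.01 ± 1.51 at 7 weeks. *Lhx6* and *Ssbp4* had 8.08 and 7.48 CPM at 2 weeks.

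The 5 genes grouped as immune were low. *C1qa*, a chain of the first complement component made by macrophages, had 3.21, 10.8, 6.39 and 5.13 at E18.5, 17.7, 17.7, 13.3 and 11.3 at 2 weeks, and 7.18, 4.04, 5.06 and 2.76 at 7 weeks CPM. *Cyba*, the light chain of the phagocyte NADPH oxidase, had 2.47, 11.5, 5.34 and 3.79 at E18.5, 13.1, 11.5, 13.9 and 13.1 at 2 weeks, and 3.63, 4.19, 6.75 and 4.97 at 7 weeks CPM, so that E18.5 replicate 2 nearly reached the lowest 2-week mouse. *Unc93b1*, which carries Toll-like receptors to endosomes, ranged over 3.79 to 9.31 at E18.5, 13.5 to 17.9 at 2 weeks and 5.49 to 7.28 at 7 weeks, *Fes* over 4.18 to 12.99 at E18.5, 14.5 to 19.6 at 2 weeks and 6.35 to 9.03 at 7 weeks and *Tnfrsf25* over 1.79 to 4.49 at E18.5, 6.99 to 11.7 at 2 weeks and 1.69 to 4.56 at 7 weeks. Macrophage markers as a whole did not follow *C1qa*. The summed CPM of the 15 tested macrophage genes was 291 to 341 at E18.5, 140 to 203 at 2 weeks and 52.3 to 149.9 at 7 weeks. *C1qb* and *C1qc*, the partners of *C1qa*, were 12.6 ± 5.53, 16.7 ± 4.3 and 6.38 ± 2.4 CPM, and 6.35 ± 3.01, 11.7 ± 2.64 and 3.51 ± 1.15 CPM. With the GC trend removed the peak of *C1qa* was 0.19, and *Unc93b1* alone of the group met the rule.

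Non-coding genes and pseudogenes made up 7 members, and 6 of these met the rule with the GC trend removed, the highest share of any role. The pseudogenes *7530428D23Rik*, *Gm10736* and *Gm11451* are annotated as processed copies of other genes. As for *Eno1b*, reads of such copies can be split between genes, so their levels are uncertain. *Gm41757* had 0.723, 0.866, 0.91 and 0.889 at E18.5, 23.6, 27.9, 15.8 and 24.8 at 2 weeks, and 3.81, 6.24, 3.17 and 2.65 at 7 weeks CPM. *Gm50221* had 1.66, 1.02, 1.26 and 0.981 at E18.5, 11.04, 12.1, 6.28 and 10.9 at 2 weeks, and 0.377, 1.68, 0.704 and 0.422 at 7 weeks CPM. They lie on the plus strand of chromosome 18 with 21510 bp between them, and exons of *Gm41757* overlap *Alpk2* on the other strand. *B230312C02Rik*, which overlaps the host gene of the muscle microRNA miR-1a-1 on the other strand, had 1.04, 1.18, 1.07 and 1.22 at E18.5, 22.9, 17.5, 52.5 and 38.4 at 2 weeks, and 10.9, 11.7, 5.32 and 6.51 at 7 weeks CPM. Here replicates 3 and 4 were the higher ones at 2 weeks. *7530428D23Rik* had 0.503, 0.581, 0.452 and 0.266 at E18.5, 12.2, 15.6, 3.11 and 2.74 at 2 weeks, and 0.992, 1.42, 0.809 and 0.893 at 7 weeks CPM and *2310016D23Rik* 0.177, 0.125, 0.0654 and 0.0817 at E18.5, 16.8, 19.7, 6.54 and 6.65 at 2 weeks, and 4.94, 4.94, 5.39 and 5.76 at 7 weeks CPM. Of the protein-coding genes without a clear role, *A930003A15Rik* had the largest excess over 7 weeks of all members, 3.79, with 7.07, 6.36, 3.97 and 5.09 at E18.5, 49.7, 51.5, 19.3 and 24.99 at 2 weeks, and 2.52, 3.46, 1.36 and 1.12 at 7 weeks CPM. Its 7-week mice were all below its E18.5 mice. The gene shares exon positions with a neighbor on the same strand, as do 7 other members, and 59 members share some with a gene on the other strand. The strand setting of the counting is not given in the sources used here, so in such genes the source of the reads is uncertain.

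The 2-week mice were not alike. In 37 of the 98 genes replicates 1 and 2 both exceeded replicates 3 and 4, and in 14 the reverse held. Of the 10294 genes with at least 5 CPM at 2 weeks, 22.1% had replicates 1 and 2 above and 34.5% had them below, so this split of the libraries was common over all genes too, there more often with replicates 3 and 4 above. The other ways of splitting these mice into pairs gave at most 19 of the 98 genes in a direction. In 6 genes, *7530428D23Rik*, *Exoc3l4*, *Ttbk1*, *Engase*, *Abhd1* and *2310016D23Rik*, replicates 1 and 2 were each more than 2 times both others, and in none of the 98 was the reverse seen, against 0.476% and 0.903% of the 10294 genes. The same mice differed in their myosins. *Myh1*, the heavy chain of fast IIX fibers, had 4913, 5590.1, 12346 and 24506 CPM at 2 weeks, and *Myh2*, that of IIA fibers, had 679, 926, 907 and 4936 CPM. For *Myh1* replicates 1 and 2 were the lower ones, and replicate 4 stood apart for *Myh2*. A link between these myosins and the spread of the members was not tested. The coefficient of variation of the 98 genes at 2 weeks had a median of 15.2% and ran from 1.74 to 77.1%. For 57 genes the highest 2-week mouse was less than 1.5 times the lowest, and for 17 it was more than 2 times. At E18.5 the median gene stood 0.56 below its age mean in replicate 1 and 0.56 above it in replicate 2 (log2).

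The levels before and after the peak were compared in a single edgeR fit of the 12 libraries, with Benjamini-Hochberg adjustment over all 19276 genes tested. Of the 98 genes, 37 (37.8%) were higher at 7 weeks than at E18.5 and 2 (2.04%) were lower, against 34.3% and 37.1% of all genes tested. The median log2 fold change was 0.50 for the members and -0.09 for all genes. The genes tested did not have to meet the rule's limit on the level at 2 weeks, and the rule also used the levels at E18.5 and 7 weeks. Genes at that limit had median differences of 0.17 from E18.5 and -0.08 from 7 weeks, against -0.08 and 0.02 over all genes tested. How far this selection set the contrast with all genes was not tested. Under TMM the count of higher genes was near this unmatched background, whereas that of lower genes was under it. Both counts depended on the scaling and on single E18.5 libraries. Once the GC trend was removed 19 were higher and 28 lower, against 31.3% and 43.2% of all genes. With scaling to the total count, under which the median of all genes moved by -1.28, 11 were higher and 55 lower, against 11.9% and 69.0%. With upper quartiles 29 were higher and 8 lower, against 28.8% and 43.3%, and with DESeq2 size factors 36 and 3, against 33.1% and 38.5%. Without E18.5 replicate 1 the counts were 32 and 7, against 33.7% and 36.4%, and without E18.5 replicate 2 they were 51 and 1, against 34.2% and 36.6%. TMM factors were 1.58 to 1.72 at E18.5 and 0.682 to 0.707 at 7 weeks.

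Higher under TMM, DESeq2 size factors, upper quartiles, total counts and after removal of the GC trend alike were 11 genes. The largest rise was that of *2310016D23Rik* at 5.63 ± 0.45 (log2 fold change ± SE, edgeR adjusted p = 1.28e-07). *Pdzd7* rose by 4.97 ± 0.33 (adjusted p = 2.96e-08) and *Rsph1* by 3.96 ± 0.36 (adjusted p = 4.46e-07). *Hhatl*, *Krt222*, *B230312C02Rik*, *Golga7b*, *Ttbk1*, *Prr29*, *Gm41757* and *Rftn1* completed the set, with 3.65 to 1.89. The lower genes were *A930003A15Rik* at -1.35 ± 0.38 (adjusted p = 0.00583) and *Gnb3* at -0.901 ± 0.32 (adjusted p = 0.02197), and both were lower under all of these scalings. *Gnb3* was no longer called without E18.5 replicate 2, 7 weeks replicate 1 or 7 weeks replicate 2 (edgeR adjusted p = 0.0880, 0.0590 and 0.0536). *Igfbp7* was higher by 1.11 ± 0.15 (adjusted p = 1.22e-05) and by 0.93 with the GC trend removed, but turned to -0.18 with total counts. *Rflnb*, at 0.67 ± 0.15 (adjusted p = 0.00122), turned to -0.61 with total counts. *Mybph*, *Cish* and *Col4a1* were not called, at -0.35 ± 0.32, -0.02 ± 0.33 and -0.095 ± 0.25, with edgeR adjusted p = 0.3396, 0.964 and 0.741 under TMM. With total counts all of these were called lower, at -1.64, -1.31 and -1.37, and with the GC trend removed *Mybph* and *Col4a1* were, at -0.85 and -0.77. *Zfp385a*, at -0.61 and not called under TMM, was called lower with upper quartiles (-0.85), total counts (-1.898) and the GC trend removed (-1.36). By role and under TMM, 6 of 12 cytoskeleton genes, 5 of 10 matrix genes, 5 of 9 neuron genes, 4 of 7 non-coding genes, 3 of 7 membrane traffic genes, 3 of 8 vessel genes, 3 of 9 signalling genes, 2 of 7 transcription genes, 2 of 10 metabolism genes, 1 of 3 myofiber genes and none of 5 immune genes were higher at 7 weeks, as were 3 of the 11 others. These counts are small and stand beside the 34.3% of all genes, and nothing is read from their order.

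**Figure D4:**
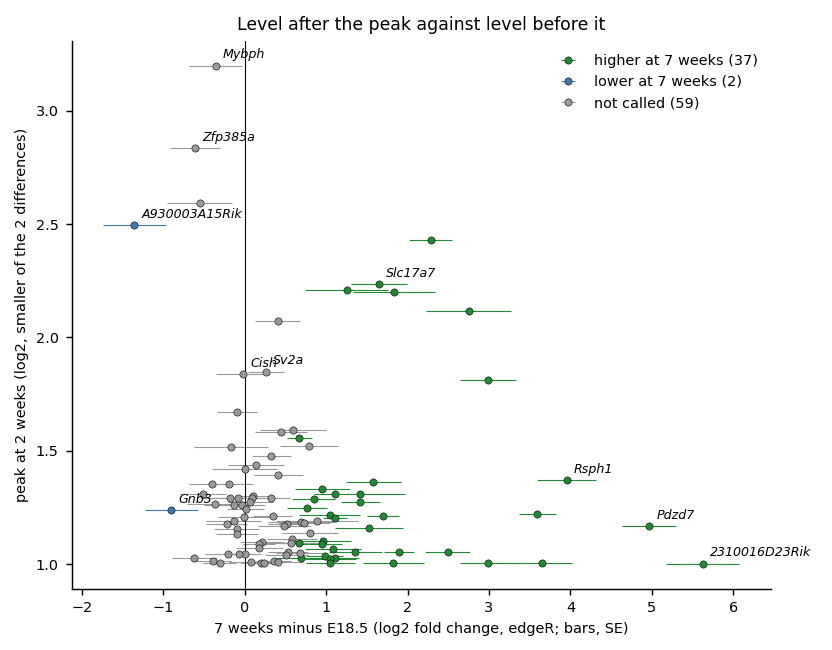
Peak at 2 weeks (y axis, log2, the smaller of the differences from the other ages) against the log2 fold change of 7 weeks over E18.5 from edgeR (x axis, bars are SE) for the 98 genes, colored by the call under TMM at an adjusted p under 0.05. The 37 genes called higher reach 5.63 and the 2 called lower reach -1.35, while *Mybph* and *Zfp385a*, with the largest peaks, lie left of 0 without a call under TMM, although *Zfp385a* was called lower with upper quartiles and both were once the GC trend was removed or total counts were used.

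The members were rich in G and C. Their median GC content was 56.7%, with quartiles of 53.2% and 59.1%, against 49.3% for genes with at least 5 CPM at 2 weeks, and 89 of 98 lay above the latter. Members made up 0.153% of the genes under 45% GC (4 of 2619), 0.272% at 45 to 50%, 0.821% at 50 to 55%, 2.64% at 55 to 60% (44 of 1664) and 7.36% above 60% (19 of 258). Over the same ranges the median difference of all genes between 2 weeks and E18.5 went from -0.41 to 1.36, and that between 2 weeks and 7 weeks from -0.25 to 0.46. With each library's GC trend removed 39 genes met the rule, 33 of them members. The peak was then positive in 93 of the 98 members, at least 0.5 in 73, and 0.83 in the median. The 33 that were kept had a median GC content of 52.6%, against 58.2% for the 65 that were not, and they held 15 of the 20 genes with the largest peaks. Genes that entered were *Snrpf*, *Ccdc28b*, *Gimap5*, *Tmed9*, *Hacd1* and *Mir133a-2*. *Hacd1*, an enzyme of long-chain fatty acid elongation in muscle, had 135 CPM at 2 weeks and went from a peak of 0.85 to 1.02.

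**Figure D5:**
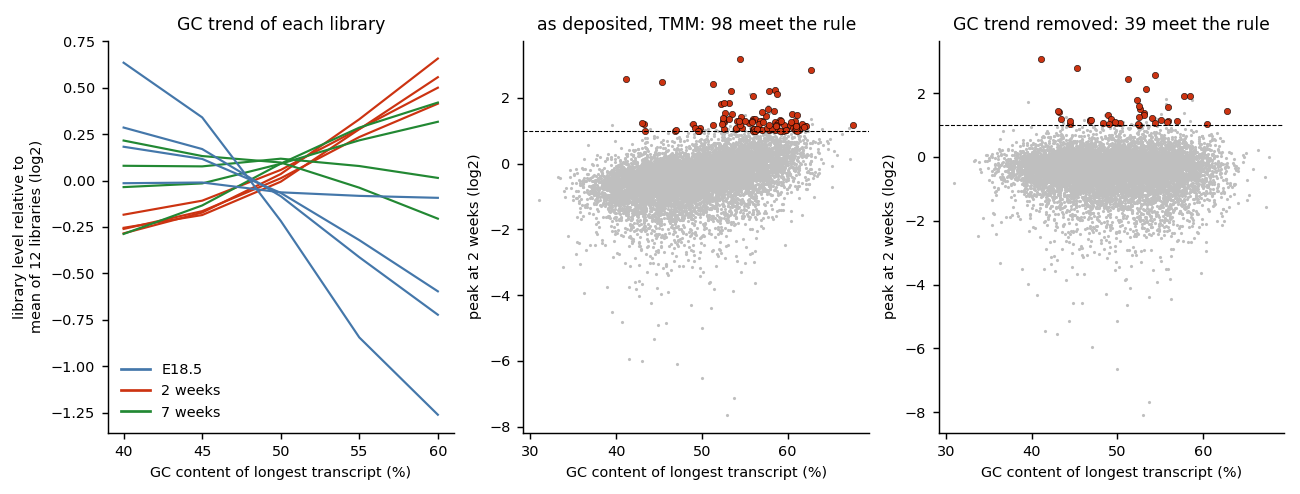
Left, level of genes relative to the mean of the 12 libraries (log2) against transcript GC content, a line per library colored by age; middle and right, peak at 2 weeks (log2) against GC content for genes with at least 5 CPM at 2 weeks (grey) and for those that met the rule (red), before and after the trend was removed. The 2-week lines reach 0.41 to 0.66 at 60% GC and the lowest E18.5 line -1.26, and 98 genes met the rule before and 39 after.

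The list depended on the scaling. With DESeq2 size factors, upper quartiles, total counts and TMM factors computed after filtering the rule was met by 88, 60, 85 and 94 genes, of which 88, 59, 41 and 89 were members. A peak of at least 1 under all of these and with the GC trend removed was held by 25 members. Their 10 largest peaks belonged to *Mybph*, *Zfp385a*, *Gm50221*, *A930003A15Rik*, *Gm41757*, *Slc17a7*, *7530428D23Rik*, *Exoc3l4*, *Ttbk1* and *Sez6l2*. *Sv2a*, *Rflnb*, *Cldn5*, *Inha*, *Tspo* and *Igfbp7* were also among the 25.

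Of 28 marker and pathway lists, which were chosen with earlier results known and each held at most 28 genes with at least 5 CPM at 2 weeks, 21 held no member. Since 0.952% of all such genes were members, nothing is read from this. The others, 7 in number, held 1 member each: the endothelial (*Cldn5*), macrophage (*C1qa*), fibroblast (*Loxl1*), tendon (*Cilp*), fatty acid oxidation (*Ucp2*), immediate early (*Ier2*) and growth hormone (*Igfbp7*) lists. The 17 tested cell cycle genes had a median difference of -1.57 at 2 weeks from E18.5 and held no gene highest at 2 weeks. The 14 fast fiber genes had a median of 3.79 from E18.5 and -0.26 from 7 weeks, and 4 of them were highest at 2 weeks. Besides the endothelial list, 6 of 10 pericyte and smooth muscle genes and 14 of 19 myelin and Schwann cell genes were highest at 2 weeks by their means. None of them met the rule. The share over all genes tested was 21.6%, a background not matched for level.

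Some members lay close together. *Prr29* and *Icam2* overlap by 6079 bp on opposite strands of chromosome 11, and *Tnfrsf25* begins 519 bp after the end of *Plekhg5* on the same strand of chromosome 4, so reads near their shared ends may be hard to assign. At the edges of the rule, *Pdlim2* (5.09 CPM) and *Tubb4a* (5.45 CPM) were just inside the limit on the level, and *Erfe* (4.87 CPM) and *Pitx3* (4.33 CPM) just outside it. *2310016D23Rik* (1.002) and *Tceal5* (1.003) were just inside the limit on the peak, and *Entpd2* (0.9997) and *Trim7* (0.998) just outside it. *Eno1b* and *Cyba* were the last whose lowest 2-week library exceeded all others, and in *Isyna1* (9.51 against 9.52 CPM) and *Ccdc28b* (17.36 against 17.38 CPM) it did not.

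RefSeq promoters, 250 bases before and 50 after the start on GRCm38.p6, were matched by symbol for 63 of the 98 genes. Motifs were searched on both strands, and a match is a string of letters and not a bound site. In the sequences printed above capitals mark only the motifs named beside them. Others of these motifs occur there unmarked, such as GC boxes and a CCAAT box in *Cish* and an E-box in *Cldn5*. A GC box (GGGCGG) was found in 73.0% of the members' promoters, against 38.2% of all 27025 promoters and 71.2% of those of genes with at least 5 CPM at 2 weeks. An E-box (CANNTG) was found in 69.8%, 74.99% and 66.7%, and the STAT motif TTCNNNGAA seen in *Cish* in 9.52%, 9.55% and 7.93%. A TATAA box was found in 12.7%, 28.0% and 15.8%. The CCAAT box was found in 28.6%, 41.1% and 42.7%, and the ETS motif CCGGAAGT in 4.76%, 4.31% and 9.80%. These shares rest on 63 promoters and were not tested. The median GC content of the promoters was 62.8% for members and 61.3% for expressed genes, closer than that of the transcripts.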

How the data were processed

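RNA of TA muscle from 12 WT mice was sequenced by the authors as stranded, polyadenylated libraries. The table they deposited holds raw counts of reads for 55450 Ensembl genes, of which 51477 matched GENCODE vM39. Per the labels, bcl2fastq 2.17.1.14, cutadapt 1.10, STAR 2.5.3a and HTSeq 0.6.1p1 were used on mm10, whereas the study's methods name GRCm39 and a transcript quantification that was not used here. The strand setting is not given in the sources used here.

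TMM factors were computed over the whole table for the rule. For 7 weeks against E18.5, the quasi-likelihood test was run with edgeR 4.0.16 under R 4.3.3 on the 19276 genes left by filterByExpr, with age as the only term and Benjamini-Hochberg adjustment at 0.05. No pair of libraries of an age agreed within counting error (chi-square per df of 34.3 or more). Alternatives were other scalings, pseudocounts, limits and filters, DESeq2 1.42.0, a replicate block and each library left out. Removal of a lowess trend (span 0.3) over transcript GC content was added after seeing the data. The steps were tested on simulated data that held no GC trend and the same spread for every gene. That test does not bear on how the results depend on the GC trend or on the scaling.

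The members, lists and alternatives were chosen with earlier results of these data known. Named genes are the 20 largest peaks, the 10 highest means at 2 weeks, members on a list, the largest changes from E18.5 to 7 weeks and the genes nearest each limit. Other members were named after their values were seen. Positions are from GENCODE vM39 on GRCm39 and promoters from RefSeq on GRCm38.p6. The values of 1 member are not reported here.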

Additional observations from a re-analysis of the deposited data

Results flagged for a closer look

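In the sets of 4 libraries, 1 per named gene and age, a value was called apart from the others when its gap to the nearest of them, divided by the range of the set, exceeded the 95% critical value of Dixon's test. Of 108 such sets 1 passed, where a rate of 1 in 20 over independent sets would give 5.4. The rule chose the genes by these same values and the sets share their libraries. That rate therefore need not hold here, and nothing is read from the difference. It was *Sv2a* at 7 weeks, where replicate 2 was at 3.60 CPM and the other mice at 2.04 to 2.28 CPM. Replicate 2 was still far below the lowest 2-week mouse, at 9.57 CPM. No explanation was tested.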

How the results depend on the processing

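The number of genes peaking at 2 weeks was 98 and moved to 60 with upper-quartile scaling, 60 with a pseudocount of 2, 52 with a minimum of 20 CPM, 300 with a peak of at least 0.5, 19 with a peak of at least 1.5 and 39 with the GC trend removed. It was 81 to 138 with a library left out, lowest without 7 weeks replicate 1 and highest without 7 weeks replicate 3. Of the members, the number higher at 7 weeks than at E18.5 (37) moved to 11 with total counts and to 19 without the GC trend, and was 32 to 51 with a library left out. The number lower (2) moved to 55 with total counts, 8 with upper-quartile scaling, 6 with at least 10 counts in every library and 28 with the GC trend removed, and was 1 to 7 with a library left out. The causes were not tested. Over all genes the 13755 calls stayed within 10542 to 15588.

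For single genes the alternatives were applied to the peaks of 36 named genes and to the fold changes of 7 weeks over E18.5 of 25 genes. Of these values, 1123 kept direction and side of the threshold, 26 moved, 31 gained a call, 12 lost it and 16 changed sign. The last were the peak of *Loxl1* with the GC trend removed (-0.24), and the log2 fold change of 7 weeks over E18.5 with total counts for *Rflnb* (-0.61), *Igfbp7* (-0.18), *Cldn5* (-0.50) and *Ier2* (-0.24), and with the GC trend removed for *Cldn5* (-0.085). With a library left out, this fold change ran from -0.62 to 0.014 for *C1qa*, -0.32 to 0.081 for *Cilp*, -0.26 to 0.14 for *Col4a1* and -0.37 to 0.13 for *Cish*, none of which was called with all libraries. *C1qa* changed sign without E18.5 replicate 2, and *Cilp* without E18.5 replicate 3 and without 7 weeks replicate 4. *Col4a1* did so without E18.5 replicate 2 or 7 weeks replicate 3, and *Cish* without E18.5 replicate 3 or 4 or 7 weeks replicate 1, 3 or 4. Over all 98 members the sign of the fold change differed from that under TMM in 2 genes with DESeq2 size factors, 11 with upper quartiles, 25 with the GC trend removed and 51 with total counts, and 17 of the 51 were called higher under TMM.

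The deviations of libraries that share a replicate number at different ages had correlations of -0.14 to 0.28. Pairs with different numbers had -0.29 to 0.24. These values cannot show whether the numbers pair the mice. With the replicate number as a block 13611 genes were called, and 41 members were higher and 2 lower. The lowest read count of a member in a library was 8, for *Ttbk1* at E18.5, where that gene was close to 0 CPM. *Pdlim2*, just inside the limit of 5 CPM at 2 weeks, had 90 to 579 reads in each library. Small differences at counts as low as that of *Ttbk1* may not be detectable.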
